A study of Mus musculus with 6 samples.

Results

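MHC class II genes were followed in RNA from mouse haematopoietic stem cells (HSCs) with or without deletion of *Maea*, an E3 ubiquitin ligase gene. They were 10 of the 46959 rows of the expression table, namely *H2-Aa*, *H2-Ab1* and *H2-Eb1* (the chains of the class II molecules that carry peptide to the cell surface), *Cd74* (the invariant chain), *H2-DMa*, *H2-DMb1* and *H2-DMb2* (the peptide exchange factor H2-DM), *H2-Oa* and *H2-Ob* (its modulator H2-O), and *Ciita* (the class II transactivator). The genes were chosen by name. The family itself was selected on earlier results of the same comparison, in which several class II genes were among those higher in MaeaCsf1r-Cre HSCs. Their differences between the groups are therefore given as a description, and no test of them is read as support.

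The control group held 3 libraries and the MaeaCsf1r-Cre group 3 libraries, each from about 2000 HSCs pooled from 2 mice. Bone marrow came from littermates 8 weeks old. In MaeaCsf1r-Cre mice the floxed *Maea* gene is deleted by a Cre recombinase under the *Csf1r* promoter, which is best known for its activity in mononuclear phagocytes and which the study also found to act in stem and progenitor cells. For the control libraries the labels give only the word control, so whether those mice carried Cre is not known here. HSCs were sorted as lineage-negative cells (CD3e, B220, Gr-1, CD11b and Ter119) that were Sca-1+, c-Kit+, CD150+ and CD48-. Because 2 mice were pooled, the spread between libraries includes differences between pools and not between single animals.

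Class II molecules are dimers of an alpha and a beta chain. They assemble in the endoplasmic reticulum with the invariant chain, which blocks the groove and guides them to endosomes, where proteases trim it to the fragment CLIP. H2-DM then exchanges CLIP for antigenic peptide, and H2-O holds H2-DM back. The genes are strongly transcribed in dendritic cells, B cells and activated macrophages under the coactivator CIITA, which is recruited to promoters by factors bound to conserved X and Y boxes and which interferon gamma induces. Class II transcripts are also known in HSCs.

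Values are CPM, the reads of a gene scaled to a common library size. The reads behind the scaling, read off the steps between low values, numbered 32968000 to 39614000 in control and 44159000 to 60937000 in MaeaCsf1r-Cre libraries, so 3 reads corresponded to 0.0492 to 0.0910 CPM. All 10 members passed the filter for testing (CPM of 1 or more in 3 or more libraries), as did 12955 genes in all. *Maea*, the deleted gene, was at 108, 116 and 123 CPM in control replicates 1, 2 and 3 and at 76.9, 88.6 and 100.98 CPM in MaeaCsf1r-Cre replicates 1, 2 and 3, lower in every MaeaCsf1r-Cre library. The MaeaCsf1r-Cre mean of *Maea* was 0.767 of the control mean, so reads of the gene remained. Among the 9 HSC markers listed for this check, all 9 were detected and tested. *Kit*, the receptor used in the sort, was at 551 to 700.1 CPM in control and 393 to 562 CPM in MaeaCsf1r-Cre libraries. Of the genes that the gate should remove, *Ly6g* was at 0 in every library, and the summed CPM of the 5 such genes was 27.6 to 68.4 in control and 36.3 to 61.8 in MaeaCsf1r-Cre libraries.

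In 2 libraries, MaeaCsf1r-Cre replicates 1 and 2, the balance between class II genes stood apart from that in the other 4. They had the highest *H2-DMb2* and the lowest *H2-Ob*, and they alone held reads of *H2-Ea-ps*. For this reason the differences between the groups are given below with and without them.

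Promoter sequences were taken from RefSeq on GRCm38.p6 and searched for the boxes that define class II promoters. They show which members hold a match to these boxes under the cutoff used here. Of the 10 members, 6 had 1 entry each while *H2-DMa* had 2. Each run below is 80 bases of the coding strand, 5′ to 3′, and the capitals mark the X1 box, where found with at most 2 mismatches, and the Y box (ATTGG, or CCAAT on the other strand).
H2-Eb1, chr17:34305752-34305831, plus strand: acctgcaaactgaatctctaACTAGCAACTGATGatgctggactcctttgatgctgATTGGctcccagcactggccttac
H2-Ob, chr17:34238794-34238873, plus strand: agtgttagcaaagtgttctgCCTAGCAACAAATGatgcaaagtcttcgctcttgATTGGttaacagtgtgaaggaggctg
H2-DMb2, chr17:34145102-34145181, plus strand: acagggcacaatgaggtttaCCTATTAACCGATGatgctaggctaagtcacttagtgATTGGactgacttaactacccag
H2-Aa, chr17:34287847-34287926, minus strand: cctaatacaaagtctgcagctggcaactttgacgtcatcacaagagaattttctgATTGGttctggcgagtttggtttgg

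The X1 box of *H2-Eb1* lay at -95 to -82 from the RefSeq start with 22 bases between it and the Y box. In *H2-Ob* it lay at -91 to -78 with a spacing of 20 bases, and in *H2-DMb2* at -127 to -114 with 23 bases. *H2-DMb1*, the near copy of *H2-DMb2*, carried the box CCTAGTAACTGATG at -98 to -85, also 23 bases from its Y box, and was the one member with 0 mismatches, against 1 in each of the other three. The spacing in *H2-DMb1*, *H2-DMb2*, *H2-Eb1* and *H2-Ob* was thus between 20 and 23 bases. *H2-Aa* and *H2-Oa* held a Y box at -48 and -43 and no X1 match within 2 mismatches. The promoters of *H2-DMa* held no X1 match, and 1 of them held a Y box at -198. A box with more mismatches would be missed by this search, so a missing match does not show that the element is absent. Of 32851 promoters of 300 bases, 8.47% held an X1 match on either strand, 37.4% a Y box, and 25 promoters (0.0761%) an X1 match with a Y box 18 to 24 bases downstream on the same strand, a spacing set after the members had been inspected. A match describes the letters only. In the annotation the *H2-Eb1*, *H2-Ob* and *H2-Aa* windows lie upstream of the gene, and the *H2-DMb2* window lies in an intron of its longest-spanning transcript. *H2-Ab1*, *Cd74* and *Ciita* were not searched.

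Of the genes for the surface class II chains, *H2-Aa* and *H2-Ab1* had non-overlapping groups, with the MaeaCsf1r-Cre libraries above the controls, and the groups of *H2-Eb1* overlapped. *H2-Aa*, the alpha chain of I-A (chr17:34282744-34287823, GRCm38), was at 44.3, 83.9 and 30.1 CPM in control replicates 1, 2 and 3, and at 156, 150.3 and 87.3 CPM in MaeaCsf1r-Cre replicates 1, 2 and 3. The lowest MaeaCsf1r-Cre library lay just above the highest control library, so the groups did not overlap. The mean was 52.8 ± 27.9 CPM in control and 131 ± 38.1 CPM in MaeaCsf1r-Cre HSCs (SD, n = 3 each), with a fitted log2 fold change of 1.38 (standard error, SE, 0.37) on the log2(CPM + 1) scale. In such bulk libraries more cells of a type and more RNA per cell cannot be told apart.

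*H2-Ab1*, the beta chain that pairs with it (chr17:34257689-34269419), was at 86.4, 122 and 48.4 CPM in control and 237, 206 and 149 CPM in MaeaCsf1r-Cre replicates. Again every MaeaCsf1r-Cre library was above every control library. The mean was 85.7 ± 37.0 CPM in control and 197 ± 44.6 CPM in MaeaCsf1r-Cre HSCs (SD, n = 3 each), with a fitted log2 fold change of 1.26 (SE 0.32). Between libraries of the same replicate number the difference in log2(CPM + 1) was 1.44, 0.74 and 1.60 for *H2-Ab1* and 1.79, 0.83 and 1.51 for *H2-Aa*, smallest in both genes for replicate 2, whose control library had the highest class II values of its group.

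*H2-Eb1*, the beta chain of I-E (chr17:34305867-34316674), was at 36.1, 61.1 and 13.3 CPM in control and 67.5, 65.4 and 51.6 CPM in MaeaCsf1r-Cre replicates. The groups overlapped, since control replicate 2 was above MaeaCsf1r-Cre replicate 3. The mean was 36.9 ± 23.9 CPM in control and 61.5 ± 8.67 CPM in MaeaCsf1r-Cre HSCs (SD, n = 3 each), with a fitted log2 fold change of 0.95 (SE 0.46). This value rested on the lowest and highest control libraries, being 0.37 without control replicate 3 and 1.43 without control replicate 2. The summed CPM of the 3 surface chain genes was 167, 267 and 91.8 in control and 460, 421 and 288 in MaeaCsf1r-Cre libraries. These are RNA values named after the chains, and protein at the cell surface, I-E included, was not measured.

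*Cd74* (chr18:60803848-60812652), whose product occupies the groove of new class II molecules, was at 59.8, 111 and 36.3 CPM in control and 119.7, 151 and 125 CPM in MaeaCsf1r-Cre replicates. No control library reached the lowest MaeaCsf1r-Cre library. The mean was 69.1 ± 38.3 CPM and 132 ± 16.9 CPM (SD, n = 3 each), with a fitted log2 fold change of 1.06 (SE 0.35). Without control replicate 3 it was 0.68.

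*Ciita* (chr16:10480059-10528418), which encodes the transactivator of these genes, was at 2.94, 9.29 and 2.60 CPM in control and 11.3, 10.2 and 4.87 CPM in MaeaCsf1r-Cre replicates. Control replicate 2 was within the range of the other group. The mean was 4.94 ± 3.77 CPM and 8.78 ± 3.43 CPM (SD, n = 3 each), with a fitted log2 fold change of 0.82 (SE 0.45), and it was 1.305 without control replicate 2 and 0.55 without control replicate 3.

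**Figure D1:**
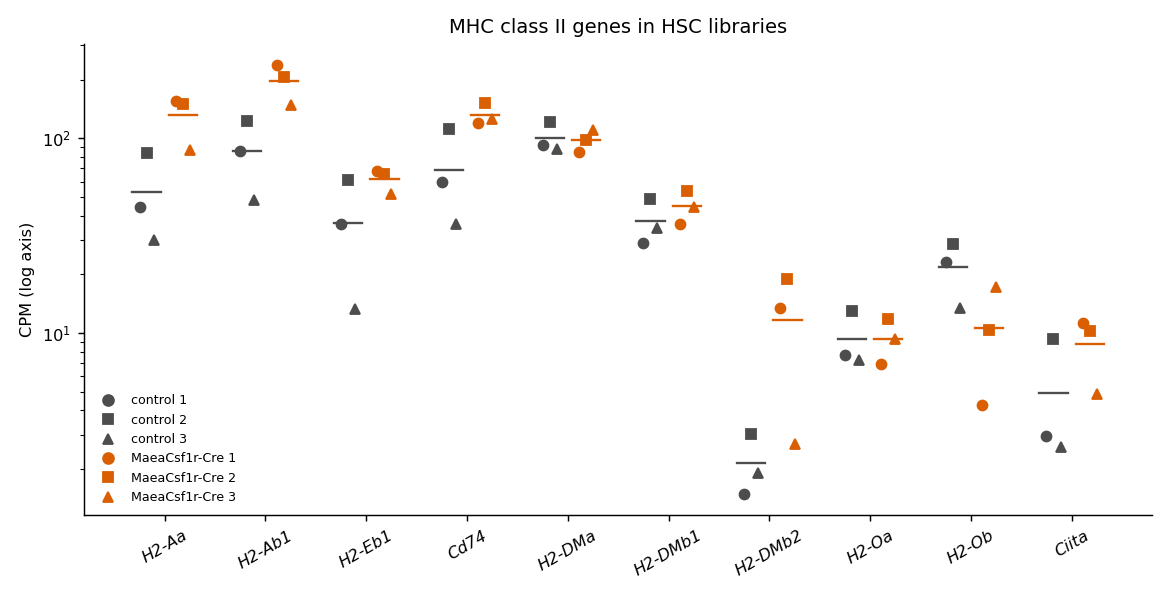
CPM of the 10 class II genes in each library, on a log axis, with controls in grey and MaeaCsf1r-Cre libraries in orange and 1 marker shape for each replicate number, and lines at the group means. For *H2-Aa*, *H2-Ab1* and *Cd74* every orange marker is above every grey marker, for *H2-DMb2* only MaeaCsf1r-Cre replicates 1 and 2 are, and for *H2-DMa* and *H2-Oa* the groups are mixed.

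The genes for the peptide exchange factor did not follow the surface chains as a group. *H2-DMa*, its alpha chain (chr17:34119541-34139101), was at 92.9, 120.7 and 88.2 CPM in control and 85.4, 97.7 and 110.2 CPM in MaeaCsf1r-Cre replicates, with a log2 fold change of -0.04 (SE 0.16). The ranges of the groups lay almost on each other. *H2-DMb1*, the main beta chain gene (chr17:34153072-34160230), was at 29.0, 48.9 and 34.7 CPM in control and 36.1, 53.7 and 44.3 CPM in MaeaCsf1r-Cre replicates. Its groups overlapped as well, with a log2 fold change of 0.26 (SE 0.22), which was 0.10 without control replicate 1, 0.12 without MaeaCsf1r-Cre replicate 2, 0.40 without MaeaCsf1r-Cre replicate 1 and 0.46 without control replicate 2.

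*H2-DMb2*, the second beta chain gene (chr17:34143307-34151555), had the highest fold of the 10 members and the widest spread. It was at 1.49, 3.02 and 1.91 CPM in control replicates and at 13.4, 18.8 and 2.70 CPM in MaeaCsf1r-Cre replicates. The third MaeaCsf1r-Cre library was within the control range. The mean was 2.14 ± 0.79 CPM and 11.7 ± 8.21 CPM (SD, n = 3 each), with a fitted log2 fold change of 1.73 (SE 0.58), which came to 0.27 without MaeaCsf1r-Cre replicates 1 and 2. The near copies share sequence: the longest *H2-DMb1* and *H2-DMb2* transcripts were identical at 93.7% of 1220 aligned bases. Of the windows of 150 bases, the length of the reads, 4.71% of those in *H2-DMb1* transcripts were also in *H2-DMb2* transcripts. Only 3 of the 6 values of *H2-DMb1* and 2 of the 6 of *H2-DMb2* were whole reads, so the split of reads between the genes is uncertain.

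The modulator genes differed from each other. *H2-Oa*, the alpha chain of H2-O (chr17:34092340-34095234), was at 7.70, 12.9 and 7.27 CPM in control and 6.89, 11.9 and 9.31 CPM in MaeaCsf1r-Cre replicates, a log2 fold change of 0.02 (SE 0.28). *H2-Ob*, the beta chain (chr17:34238903-34254414), was at 23.1, 28.6 and 13.5 CPM in control and 4.28, 10.3 and 17.3 CPM in MaeaCsf1r-Cre replicates. MaeaCsf1r-Cre replicates 1 and 2 were below every control library and replicate 3 was within the control range. The mean was 21.7 ± 7.67 CPM and 10.6 ± 6.50 CPM (SD, n = 3 each), with a fitted log2 fold change of -1.08 (SE 0.46). It was -0.60 without MaeaCsf1r-Cre replicate 1 and -0.25 without replicates 1 and 2. All 6 values of *H2-Ob* were whole reads, 261 to 1134 of them.

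Ratios within a library do not depend on its scaling and set the libraries side by side. *H2-DMb2* over *H2-DMb1* was 0.051, 0.062 and 0.055 in control and 0.372, 0.351 and 0.061 in MaeaCsf1r-Cre replicates. *H2-Ob* over *H2-Oa* was 3.0, 2.21 and 1.85 in control and 0.621, 0.873 and 1.85 in MaeaCsf1r-Cre replicates. In both ratios MaeaCsf1r-Cre replicates 1 and 2 stood apart and replicate 3 had a value like those of the controls. *H2-Ea-ps*, listed as a polymorphic pseudogene and counterpart of the I-E alpha chain gene, was at 0 in all 3 control libraries and in MaeaCsf1r-Cre replicate 3, where 3 reads would have been 0.0677 CPM. It held 20 reads (0.328 CPM) in MaeaCsf1r-Cre replicate 1 and 31 reads (0.702 CPM) in replicate 2. *H2-Eb2*, the other I-E beta chain gene, was at or below 0.451 CPM in every library. *H2-Aa* over *H2-Ab1* did not separate libraries, at 0.512, 0.685 and 0.621 in control and 0.658, 0.731 and 0.586 in MaeaCsf1r-Cre replicates. The labels do not give the MHC haplotype of the mice, and whether the libraries differed in it was not tested.

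**Figure D2:**
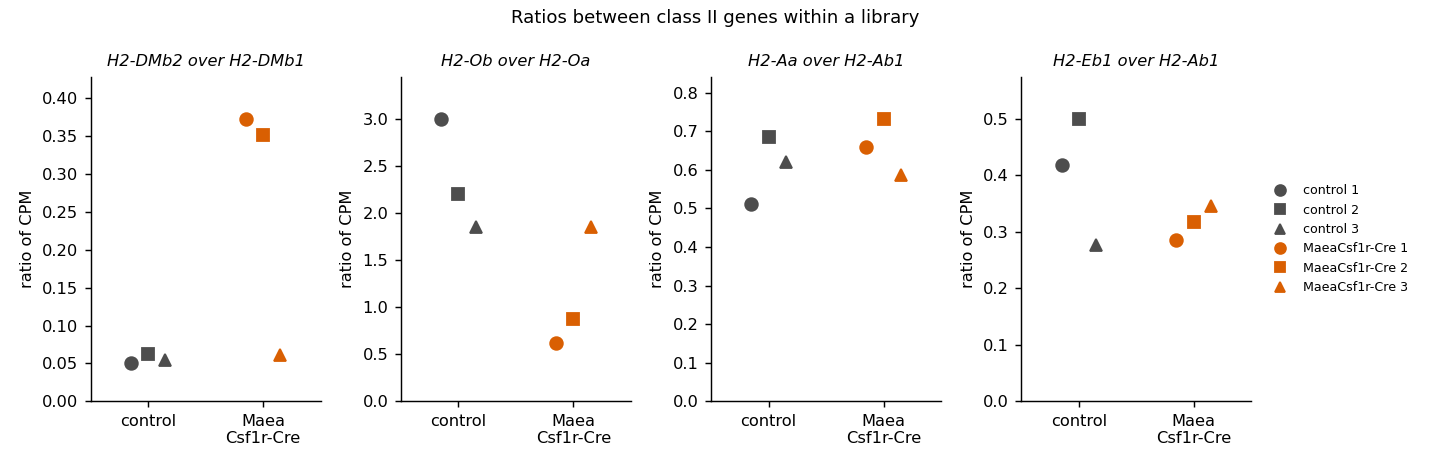
Ratios of CPM between class II genes in each library, with controls in grey and MaeaCsf1r-Cre libraries in orange. MaeaCsf1r-Cre replicates 1 and 2 stand apart in *H2-DMb2* over *H2-DMb1* (0.372 and 0.351) and *H2-Ob* over *H2-Oa* (0.621 and 0.873), and the other 2 ratios overlap between groups.

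With MaeaCsf1r-Cre replicates 1 and 2 left out, the lone library is assumed to vary like the controls. The log2 fold change was then 0.84 for *H2-Aa* (SE 0.51), 0.89 for *H2-Ab1* (0.47), 0.995 for *Cd74* (0.55), 0.71 for *H2-Eb1* and 0.16 for *Ciita*. *H2-Aa*, *H2-Ab1* and *Cd74* in replicate 3 were above each control library, as were 20.2% of all genes when this library alone was set against the controls.

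Of the 10 members, 8 had a higher and 2 a lower mean in MaeaCsf1r-Cre HSCs, and the median log2 fold change was 0.89 beside -0.06 over all genes tested. Groups did not overlap for 3 members, *H2-Aa*, *H2-Ab1* and *Cd74*, all higher in every MaeaCsf1r-Cre library. Over all genes, 2.49% were higher and 6.06% lower in every MaeaCsf1r-Cre library. Under median-ratio scaling, which moved the median of all genes from -0.06 to 0.01, those shares were 5.05% and 4.09%, and 3 members were again higher in every library. Under quantile normalization the shares were 5.19% and 4.42%, and *H2-Aa* and *H2-Ab1* were higher in every library while the groups of *Cd74* overlapped. limma called 0 of the 10 members at an adjusted p under 0.05, where the background was 0.00772% (1 gene, *BC023719*), and 5 members had an unadjusted p under 0.05, as did 3.99% of all genes. The smallest adjusted p of a member was 0.967 from limma, and 0.084 from limma with the replicate number as a block. Nothing is read from these counts, since the rule used this contrast.

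Levels between genes were set side by side per kilobase of exon, as means of the 6 libraries. *Cd74* stood first with 59.9 CPM per kb and *H2-Ab1* next with 55.1. *H2-DMa* (28.8), *H2-Eb1* (25.3), *H2-DMb1* (24.5) and *H2-Aa* (24.2 CPM per kb) followed closely. Neighbours among these 6 genes were not in the same order in every library, so their order does not exceed their spread. *H2-Aa* was above *H2-Oa* (6.63 CPM per kb) in all 6 libraries, the one step that held throughout. The lowest levels were those of *H2-DMb2* (3.95), *H2-Ob* (3.01) and *Ciita* (0.72 CPM per kb). The order differed between the groups. *H2-Aa* was the lowest of these 6 genes in control, with 13.9 ± 7.35 CPM per kb, and was above *H2-DMa* in MaeaCsf1r-Cre HSCs, with 34.5 ± 10.04 beside 28.4 ± 3.6005 CPM per kb (SD, n = 3). *H2-DMb2* had 1.22 ± 0.453 CPM per kb in control and 6.67 ± 4.70 in MaeaCsf1r-Cre HSCs, where *H2-Oa* had 6.65 ± 1.76 CPM per kb. In MaeaCsf1r-Cre replicate 3 *H2-DMb2* had 1.55 CPM per kb.

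The surface chains, *Cd74* and *Ciita* varied together over the 6 libraries. Pearson's r of log2(CPM + 1), a description over 6 libraries that share their scaling and groups, was 0.986 for *H2-Aa* with *H2-Ab1*, 0.949 for *Cd74* with *H2-Eb1* and 0.929 for *Ciita* with *H2-Aa*. With the group means removed, these were 0.958, 0.941 and 0.967. The lowest r among these genes was 0.847, for *Ciita* with *H2-Eb1* (0.768 with the group means removed). The r of other genes was not set beside them. *H2-DMb2* with *H2-Aa* had r of 0.867, and 0.672 with the group means removed. For *H2-DMa*, r was 0.137 with *H2-Aa* (0.371 with the group means removed), 0.433 with *Cd74* (0.769) and 0.822 with *H2-Oa* (0.830).

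Of the members, 8 lie in 224 kb of chromosome 17, and the interval holds the peptide transporter and immunoproteasome genes of class I presentation. Of the 12 other annotated genes there, 7 were tested, 4 were higher in every MaeaCsf1r-Cre library and 0 lower, beside 2.49% and 6.06% of all genes, with a median log2 fold change of 0.36. Of the 4, *Gm20496* was below a CPM of 1 in every control library and passed the filter only through the MaeaCsf1r-Cre group. Its place among the 4 was therefore fixed by the filter. Under median-ratio scaling 3 of 6 tested were higher in every library, as *Gm20496* no longer passed the filter, and under quantile normalization *Psmb9* and *Tap1* were higher and *Brd2* lower, 3 of 7 in all. *Psmb9*, an immunoproteasome subunit, was at 122, 138 and 116 CPM in control and 202, 161 and 155 CPM in MaeaCsf1r-Cre replicates, a log2 fold change of 0.45 (SE 0.14). *Tap1*, a subunit of the peptide transporter, was at 183, 215 and 180.5 CPM in control and 278, 240.2 and 235 CPM in MaeaCsf1r-Cre replicates, with 0.38 (SE 0.13). These were smaller differences than those of *H2-Aa* and *H2-Ab1*, with less spread among the controls.

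*Tap2*, the other transporter subunit, was at 141 to 169 CPM in control and 170.3 to 182 CPM in MaeaCsf1r-Cre libraries, with 0.18 (SE 0.11). *Gm20496*, an antisense gene that overlaps *Psmb8* and *Tap2*, was at 0.633 to 0.899 CPM and 1.04 to 2.09 CPM, with 0.50 (SE 0.24). The library kit does not mark strand, so its reads and those of its partners cannot be told apart. *Psmb9* and *Tap1* also overlap at their starts on opposite strands. Of their 6 values each, 3 of *Psmb9* and 0 of *Tap1* were whole reads. The genes counted in the interval are therefore not fully separate measurements. In the stretch of equal length before the interval, 2 of 18 genes tested were higher in every MaeaCsf1r-Cre library and 1 lower, with a median of 0.02, and in the stretch after it 0 genes passed the filter. With 7 genes tested within the interval, limma called 0, and 2 of those named here (*Psmb9* and *Tap1*) had an unadjusted p under 0.05.

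**Figure D3:**
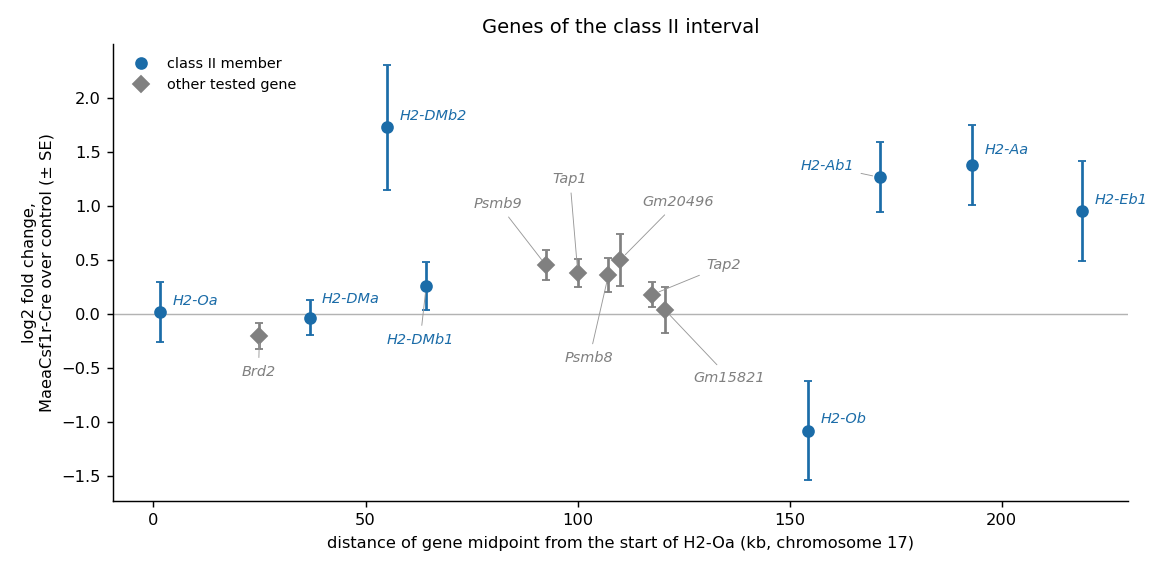
log2 fold change (MaeaCsf1r-Cre over control) with its standard error for the genes tested in the class II interval, against the distance in kb of each gene's midpoint from the start of *H2-Oa*. *H2-Ab1*, *H2-Aa* and *H2-Eb1* lie at one end with values of 1.26, 1.38 and 0.95, *H2-Ob* beside them is at -1.08, and *Psmb9*, *Tap1* and *Psmb8* in the middle are at 0.45, 0.38 and 0.36.

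Genes listed for class II transcription, from promoter-binding factors to interferon gamma receptor genes, showed no shared direction. Of 18 genes listed (the RFX and NF-Y subunits, CREB1, interferon gamma receptor genes and others), 16 were tested, 8 had a higher and 8 a lower mean, and the median was -0.08. *Rfx5*, whose product binds the X box, was at 32.1, 42.5 and 39.6 CPM in control and 24.1, 30.1 and 35.8 CPM in MaeaCsf1r-Cre replicates, with -0.34 (SE 0.19). *Creb1*, which encodes an X2 box binding factor, had a log2 fold change of -0.32 (SE 0.16). limma called 0 genes of this list, and 1 had an unadjusted p under 0.05.

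Targets of interferon gamma, which is the main inducer of *Ciita* in many cells, had higher values in 13 of 14 genes tested, of 15 listed. Of these, 7 were higher in every MaeaCsf1r-Cre library, beside 2.49% of all genes, and the median log2 fold change was 0.43. The list holds *Psmb9* and *Tap1* already given. *Igtp*, an interferon-induced GTPase, was at 88.5, 132 and 68.1 CPM in control and 465, 192 and 175 CPM in MaeaCsf1r-Cre replicates, a log2 fold change of 1.42 (SE 0.39). MaeaCsf1r-Cre replicate 1 had the highest *Igtp*. Of the members, *H2-Aa*, *H2-Ab1*, *H2-Eb1* and *Ciita* were also highest there, whereas *Cd74*, *H2-DMa*, *H2-DMb1*, *H2-Oa* and *H2-Ob* were lowest of their group there and *H2-DMb2* was highest in replicate 2. limma called 0 genes of the list, 7 had an unadjusted p under 0.05 beside 3.99% of all genes, and the smallest adjusted p with the replicate block was 0.198.

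**Figure D4:**
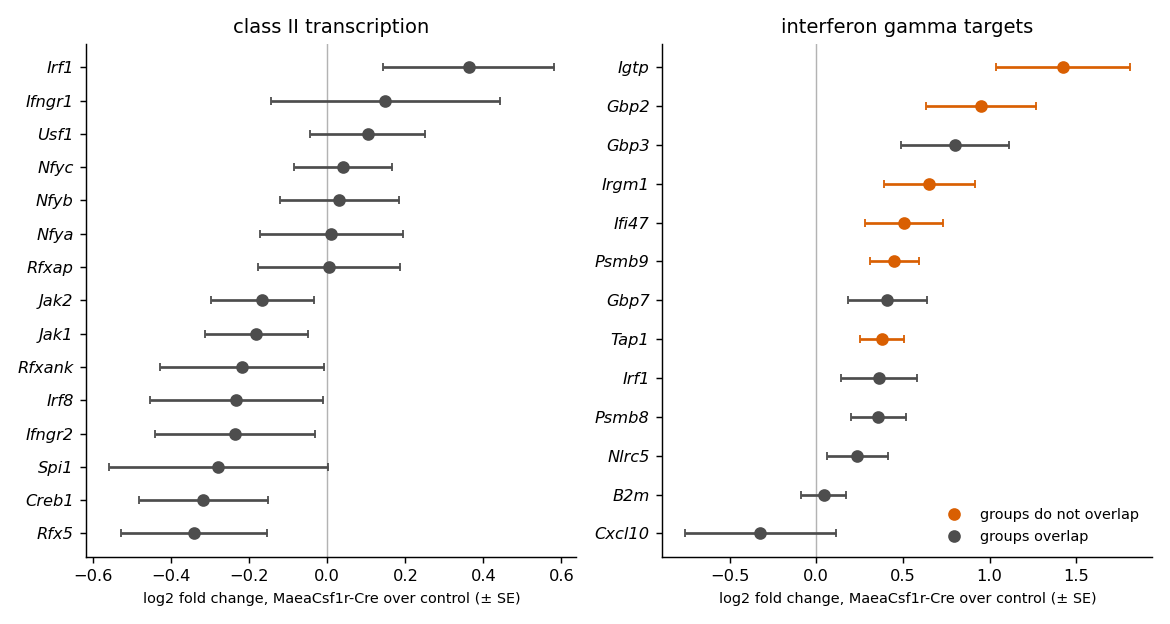
log2 fold change (MaeaCsf1r-Cre over control) with its standard error for tested genes of class II transcription and of the interferon gamma targets, with genes whose groups do not overlap in orange. The first list lies on both sides of 0 (median -0.08) and the second mostly to the right of it (median 0.43), with *Igtp* at 1.42.

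Genes that process antigen for class II had a lower mean in 7 of the 8 tested, with a median of -0.17 and 0 called by limma (0 with an unadjusted p under 0.05). *Ctsl*, a protease that trims the invariant chain, was at 83.8, 38.9 and 88.7 CPM in control and 30.1, 30.1 and 107 CPM in MaeaCsf1r-Cre replicates, with the third replicate of both groups highest. *Sppl2a*, which cleaves the remaining membrane stub of the invariant chain, had a log2 fold change of -0.20 (SE 0.17), and *Ifi30*, a lysosomal thiol reductase, 0.19 (0.20).

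Of 6 costimulation genes 4 were tested, with 0 called by limma (0 with an unadjusted p under 0.05) and a median of -0.06. *Cd86*, a CD28 ligand, was at 3.003, 3.56 and 6.84 CPM in control and 0.738, 1.27 and 3.92 CPM in MaeaCsf1r-Cre replicates, a log2 fold change of -0.96 (SE 0.43). Its direction was opposite to that of *H2-Ab1*. *Pdcd1lg2*, a PD-1 ligand, had a log2 fold change of 0.62 (SE 0.32) and *Icosl* -0.37 (0.27).

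Markers of cell types known for strong class II expression were measured beside the members. Of 9 dendritic cell markers 2 were tested, *Cd209a* and *Siglech* were at 0 in every library, and the summed CPM of the list was 21.3 to 40.3 in control and 17.3 to 44.2 in MaeaCsf1r-Cre libraries, most of it from *Zbtb46*. *Itgax*, which encodes CD11c, was at 0 in all MaeaCsf1r-Cre libraries and at most 0.152 CPM in control libraries. *Clec10a* was at 0.815, 1.23 and 0.292 CPM in control and 2.09, 2.56 and 1.88 CPM in MaeaCsf1r-Cre replicates. Its log2 fold change was 0.86 (SE 0.27). Control replicates 1 and 3 were below a CPM of 1, so *Clec10a* passed the filter only through the MaeaCsf1r-Cre group. Nothing is therefore read from its difference. Only 2 of its 6 values were whole reads, and its part in the class II values was not tested. *Zbtb46*, a factor of classical dendritic cells, had a log2 fold change of -0.05 (SE 0.40).

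Of 10 B cell markers 2 were tested, and *Ms4a1*, *Pax5* and *Igll1* were at 0 in every library. The summed CPM was 34.0 to 55.4 in control and 13.9 to 27.2 in MaeaCsf1r-Cre libraries, the direction opposite to that of *H2-Aa*. *Ighm*, the IgM heavy chain, was at 16.9, 29.5 and 7.51 CPM in control and 0.279, 0.838 and 2.26 CPM in MaeaCsf1r-Cre replicates, lower in every MaeaCsf1r-Cre library, and *Cd79b* had a log2 fold change of -0.20 (SE 0.29). Macrophage markers also went the other way from *H2-Aa*: 9 of 10 tested had a lower mean, 5 were lower in every MaeaCsf1r-Cre library beside 6.06% of all genes (4 under median-ratio scaling and 3 under quantile normalization), and the summed CPM of the list of 12 was 73.2 to 161 in control and 46.3 to 106 in MaeaCsf1r-Cre libraries. The complement genes *C1qb*, *C1qc* and *C1qa* had log2 fold changes of -2.55, -2.51 and -1.42. All were below a CPM of 1 in every MaeaCsf1r-Cre library and passed the filter only through the controls. Their lower values in every MaeaCsf1r-Cre library were therefore fixed by the filter, and the share of all genes is no measure for them. They were also the 3 counted under quantile normalization.

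The other marker lists held few tested genes or overlapped. T cell markers (2 of 8 tested, *Cd3g* and *Cd8a* at 0) summed to 11.6 to 16.5 CPM in control and 7.23 to 10.9 CPM in MaeaCsf1r-Cre libraries. Neutrophil markers (2 of 8 tested, *Ly6g* at 0) summed to 27.8 to 219 CPM and 4.58 to 114 CPM. Erythroid markers (7 of 7 tested) summed to 807 to 3793 CPM and 1588 to 4029 CPM. HSC markers had a lower mean in 7 of 9 genes, with a median of -0.55, among them *Fgd5* (-0.91, SE 0.52) and *Hlf* (-0.78, SE 0.44), and summed to 983 to 1542 CPM and 669 to 1230.0 CPM. limma called 0 genes of any list, with 0 to 7 genes of a list at an unadjusted p under 0.05.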

How the data were processed

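The authors sequenced SMART-Seq v4 and Nextera XT libraries of sorted HSCs, trimmed the reads with Trim Galore, aligned them to mm10 with STAR 2.5.3a and used Partek Flow for quantification and scaling. The unit of the deposited values is CPM, with 0.0001 added by the authors, which was subtracted. How reads with several alignments were shared out is not given in the sources used here. The rows of the table held 75.2 to 80.2% of the reads used for scaling. Within a library 76.9 to 79.3% of low values (below 100 reads) lay within 0.1 of a whole read, so counts were not recovered and no count model was used. Limits of 3 reads cover counting error only.

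Genes at a CPM of 1 or more in 3 or more libraries were fitted on log2(CPM + 1) by limma 3.58.1 (R 4.3.3) with a mean-variance trend, comparing MaeaCsf1r-Cre with control in a two-sided test, and p-values were adjusted over 12955 genes (Benjamini-Hochberg). The fit was tested on simulated data. Libraries are pools of 2 mice, and p-values measure the spread between pools. Same-numbered libraries, numbered in the labels, deviated together across genes (r = 0.627, 0.523 and 0.397, other pairs -0.459 to -0.0538), so a fit with the number as a block was also made.

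The members and lists were chosen with earlier results of these data known. Named genes were all members, *Maea*, the 3 tested genes of smallest p in each list and neighbours whose groups did not overlap, with others (*Kit*, *Itgax* and *Ly6g* as markers, *Psmb8* in a caption, *Brd2*, *Lgmn* and *Vcam1*) named after their values were seen. The values of 1 listed gene are not reported here and not drawn. Locations and exon lengths came from GENCODE M21, in which 44027 rows found a gene. As 27 symbols appear as dates, March1 and March8 were unmatched, and H2-Ea was not matched. Protein sequences were not used here, and transcripts were aligned with Biopython 1.88 in their place. Transcript identity, the box spacing, the flanking stretches and leaving out MaeaCsf1r-Cre replicates 1 and 2 were chosen after seeing the data. Other alternatives were a pseudocount of 0.1, no filter, a CPM of at least 10, median-ratio scaling, quantile normalization, no trend, each library left out, and the longest transcript as length. Figures were drawn with matplotlib 3.10.9, and tables made with pandas 2.3.3 and numpy 2.4.6 in Python 3.11.15.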

Additional observations from a re-analysis of the deposited data

How the results depend on the processing

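*H2-Aa* (0.84 to 1.77), *H2-Ab1* (0.89 to 1.57), *H2-Eb1* (0.37 to 1.43), *Cd74* (0.68 to 1.48), *Ciita*, *H2-DMb1* (0.10 to 0.46), *H2-DMb2* and *H2-Ob* kept the direction of their log2 fold change under every alternative run. *H2-DMa* reversed to 0.0397 under median-ratio scaling and 0.14 without MaeaCsf1r-Cre replicates 1 and 2, and ranged from -0.12 to 0.10 over single libraries left out. *H2-Oa* ranged from -0.15 to 0.26 in the same way. Both lie near 0, and the cause was not tested. Without MaeaCsf1r-Cre replicates 1 and 2, *H2-DMb2* came to 0.27 and *H2-Ob* to -0.25. The members higher in every MaeaCsf1r-Cre library numbered 3 to 7 over single libraries left out, 7 without control replicate 2 and 6 without MaeaCsf1r-Cre replicate 3, where 4.27% and 3.99% of all genes were so, and 2 under quantile normalization. A filter at a CPM of 10 removed *Ciita*, *H2-DMb2* and *H2-Oa* and left 7 members tested.

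Over all genes limma called 1 gene, and 1 with the replicate block, which changed no call of a member or listed gene. It called 0 with a CPM of at least 10 (302 at an unadjusted p under 0.05), 0 without MaeaCsf1r-Cre replicates 1 and 2, and 0 to 1 over single libraries left out. With the longest transcript as length, *H2-Ab1* passed *Cd74* and *H2-Ob* passed *H2-DMb2*. With 3 pools a group, differences as small as those of *H2-DMa* and *H2-Oa* were not detectable against the spread.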

Other observations

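*Lgmn*, a lysosomal protease that processes antigen and the invariant chain, was at 7.40, 1.79 and 16.6 CPM in control and 1.43, 0.862 and 41.8 CPM in MaeaCsf1r-Cre replicates, so the third replicate was highest in both groups. *Vcam1*, an adhesion molecule listed as a macrophage marker, was at 28.5, 2.60 and 26.7 CPM in control and 0.525, 0 and 29.997 CPM in MaeaCsf1r-Cre replicates. MaeaCsf1r-Cre replicates 1 and 2 were the lowest in both genes.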
